A study of Homo sapiens with 4 samples.

Results

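CaM kinase II is described here through 7 genes, 2 that encode its inhibitor proteins (CAMK2N1 and CAMK2N2), 3 that encode kinase subunits (CAMK2B, CAMK2D and CAMK2G) and 2 of the genes that encode calmodulin (CALM2 and CALM3). They were taken by symbol from tables of 25343 genes, and all 7 had a mean of at least 1 CPM (reads scaled to library size) in both cell lines. CAMK2N1 was chosen because it was over 2-fold higher in both MAOA knockdown libraries, so its ratios between knockdown and control are a description and carry no test. The other genes were added by family and role.

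The libraries came from C4-2B ENZR, an enzalutamide-resistant derivative of the C4-2B prostate cancer line (the resistant line) that was kept in 20 µM of this antiandrogen, and from LNCaP, the androgen-responsive line from which C4-2B descends, grown without the drug. In each line 1 library came from cells with a stable non-targeting hairpin and 1 from cells with a stable hairpin against the coding region of MAOA, the gene of monoamine oxidase A, which breaks down serotonin and noradrenaline. Cells of all 4 groups had been infected with lentivirus and selected with an antibiotic, and were grown with 10% fetal bovine serum. The labels do not tell which hairpin each line received, although the codes of the knockdown libraries differ between the lines. Nothing in the labels shows separate cultures within a group. Library names share a lane-like suffix within a line and differ in it between the lines. Line, drug, lane and any difference in hairpin therefore cannot be told apart.

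Each of the 4 libraries held 23479051 to 52550452 reads. MAOA itself was at 327 CPM in the C4-2B ENZR control and 219 in its knockdown, and at 445 and 140 CPM in LNCaP. All 10 luminal prostate markers checked were at 1 CPM or more in every library, although KLK3, the prostate-specific antigen gene, reached only 3.72 and 6.34 CPM in the resistant line. Of 13 markers of basal, stromal, endothelial, immune and neuroendocrine cells, 6 or 7 had at most 3 reads in a library. COL1A2 and CD3E had 0 in all 4. At 1 CPM or more were 5 of the 13 in the C4-2B ENZR control, 4 in its knockdown and 6 in each LNCaP library. COL1A1 (44.4 to 60.9 CPM), CD68 (9.87 to 24.8), VWF (up to 16.1) and SYP (up to 2.23) were so in every library. PECAM1 and KRT14 were so in some libraries only. The 2 tables were normalized separately, so ratios were taken within a line. In LNCaP the median log2 ratio of genes averaging 10 CPM or more was 0.13 and in C4-2B ENZR it was -0.01, and LNCaP ratios are therefore also given after subtracting that median (centred).

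CaM kinase II is a multi-subunit serine/threonine kinase that is switched on when calcium-loaded calmodulin binds its subunits. Once active, neighbouring subunits phosphorylate each other, which lets the enzyme stay on after calcium has fallen. CAMK2N1 and CAMK2N2 are small proteins that bind the activated kinase and block its catalytic site, and CAMK2N1 has been described as a restraint on the growth of prostate cancer cells.

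CAMK2N1 RNA was higher in the knockdown library of both lines, while CAMK2N2 differed little. CAMK2N1 was at 39.3 CPM in the C4-2B ENZR control and 105 in its knockdown, from 972 and 2593 reads. The LNCaP control had 95.5 CPM and the LNCaP knockdown 367, from 5421 and 17912 reads. Both knockdown libraries lay above both controls, with the C4-2B ENZR knockdown close to the LNCaP control, a comparison across separately normalized tables.

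The knockdown level of CAMK2N1 was 2.68 times the control level in C4-2B ENZR and 3.84 times in LNCaP. On the log2 scale with a pseudocount of 1 CPM the ratios were 1.40 and 1.93, and 1.79 in LNCaP when centred. Without the pseudocount they were 1.42 (95% counting interval 1.32 to 1.53) and 1.94 (1.90 to 1.98). These exact Clopper-Pearson intervals, here and below, cover counting error only, since 1 library per group gives no replicate check and reads without molecular identifiers are not independent molecules. Whether the lines differed in the size of the ratio has no test, since each line has 1 ratio.

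By ratio CAMK2N1 ranked 17th from the top of 13810 genes in C4-2B ENZR and 5th of 13787 in LNCaP. In the comparison that chose it, 7 of 13114 genes (0.0534%) were at least 2-fold higher in both lines. Ordered by the smaller of a gene's ratios in the lines, CAMK2N1 stood 2nd (1.40), behind PLA2G2A (1.76). The gene just inside the threshold was ADRA2A (1.06 and 2.99) and the one just outside it was DDIT4 (1.96 and 0.99). The next member of the family in that order was CAMK2G, ranked 808th with 0.26.

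CAMK2N2, the second inhibitor gene, measured 6.55 (control) and 6.91 CPM (knockdown) in C4-2B ENZR cells, with 25.9 and 30.0 CPM in LNCaP. Control and knockdown lay close together in both lines, with log2 ratios of 0.07 and 0.20 (0.07 when centred). The counting interval without the pseudocount included equality in C4-2B ENZR (-0.24 to 0.40) and lay above 0 in LNCaP (0.11 to 0.32). In limma, fitted on the ratios of both lines over 13114 genes, the mean ratio of CAMK2N2 was 0.14 (SE 0.15, adjusted p = 0.695). CAMK2N2 overlaps the gene EEF1AKMT4 on the other strand, and 24.7% of its 50-base stretches occur there on one strand or the other. The sources used here do not say whether counting used the strand, so reads of this overlap cannot be told apart. No 50-base stretch of CAMK2N1 occurs in another gene of the GENCODE transcripts (0%).

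CAMK2N1 made up 85.7% of the reads of both inhibitor genes in the C4-2B ENZR control (exact 95% interval 83.5 to 87.7%) and 93.8% in the knockdown (92.9 to 94.7%). In LNCaP its share was 78.7% in the control (77.7 to 79.6%) and 92.4% in the knockdown (92.1 to 92.8%). Such shares within a library do not depend on how libraries are scaled. Since CAMK2N1 was chosen by its ratios and CAMK2N2 differed little, the higher shares in the knockdowns are a description.

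**Figure D1:**
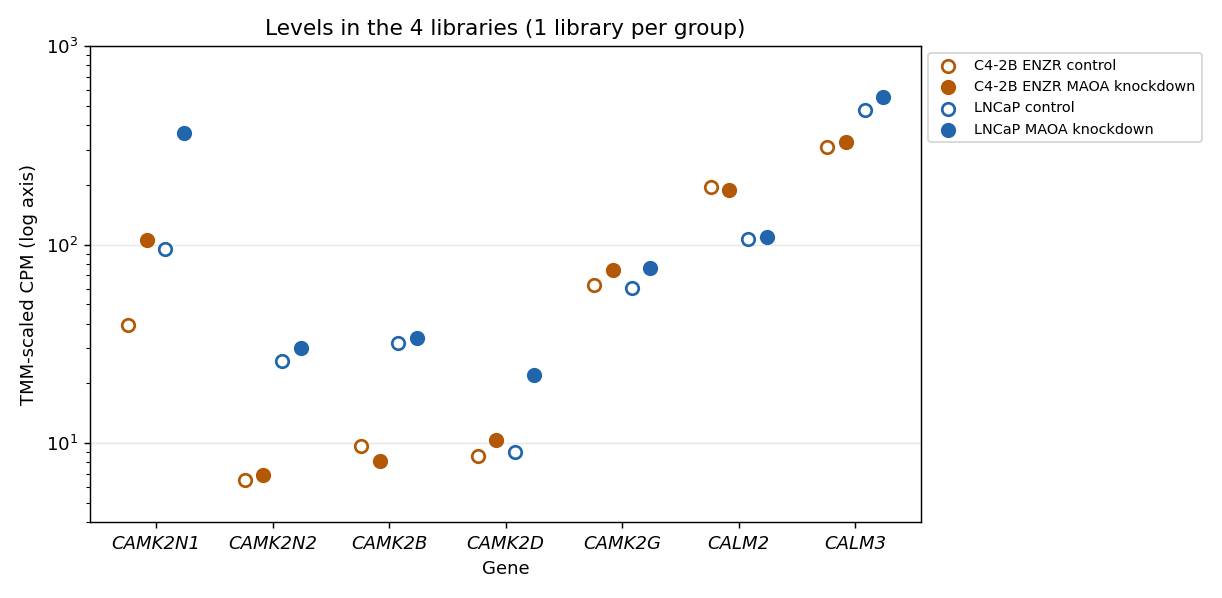
TMM-scaled CPM (log axis) of the 7 genes in the 4 libraries, 1 point per library, open for control and filled for knockdown. CAMK2N1 has 39.3 and 105 CPM in the resistant line, and 95.5 and 367 CPM in LNCaP, and the 2 tables were normalized separately.

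Among the kinase subunit genes, CAMK2D was higher in the LNCaP knockdown, and CAMK2G and CAMK2B lay within 2-fold of their controls in both lines. The upstream 250 bases of the 3 subunit genes are shown because these genes encode parts of 1 enzyme and had unlike ratios. They come from RefSeq on GRCh38.p14, whose table held entries for 5 of the 7 genes, and CAMK2N1 and CALM2 are not shown. All 3 lie on the minus strand and are written 5′ to 3′ toward the annotated start, CAMK2D at chr4:113761739-113761988, CAMK2B at chr7:44325595-44325844 and CAMK2G at chr10:73874556-73874805. Capitals mark the Sp1 box GGGCGG on either strand.
CAMK2D: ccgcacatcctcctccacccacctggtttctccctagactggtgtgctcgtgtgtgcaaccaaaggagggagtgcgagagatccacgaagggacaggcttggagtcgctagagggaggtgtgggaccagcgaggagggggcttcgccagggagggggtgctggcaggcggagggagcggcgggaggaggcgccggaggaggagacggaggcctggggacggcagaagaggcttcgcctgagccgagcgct
CAMK2B: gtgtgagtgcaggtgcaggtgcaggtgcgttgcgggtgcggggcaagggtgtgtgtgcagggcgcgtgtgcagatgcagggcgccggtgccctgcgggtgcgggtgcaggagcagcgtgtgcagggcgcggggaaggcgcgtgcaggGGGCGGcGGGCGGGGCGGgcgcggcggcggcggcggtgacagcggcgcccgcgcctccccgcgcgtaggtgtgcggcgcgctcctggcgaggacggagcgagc
CAMK2G: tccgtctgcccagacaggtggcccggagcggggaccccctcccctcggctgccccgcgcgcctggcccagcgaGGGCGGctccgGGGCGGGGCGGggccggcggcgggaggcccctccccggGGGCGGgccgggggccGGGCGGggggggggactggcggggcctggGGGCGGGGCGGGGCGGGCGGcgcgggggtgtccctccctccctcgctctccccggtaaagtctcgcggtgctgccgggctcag

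CAMK2D held 0 matches to GGGCGG, CAMK2B 3 and CAMK2G 9, counting overlapping matches, and 42.6% of 35116 promoter windows of this length hold at least 1. G and C made up 67.6% of the CAMK2D window, 78.4% of that of CAMK2B and 84.8% of that of CAMK2G, against a median of 58.0%. Other motifs searched on both strands had 0 matches in the 3 windows. These were the TATA box TATAAA (in 10.7% of windows), the E-box CACGTG (6.34%), the cAMP response element TGACGTCA (1.65%) and its shorter core TGACG, which lies within it (21.2%), the steroid receptor element core AGAACA (12.4%), the CEBP-ATF element TGATGNAAT (0.888%) and the FOXO site GTAAACA (2.98%). A match is a run of letters and not a measured binding site.

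CAMK2D, which encodes the delta subunit, was at 8.65 CPM in the C4-2B ENZR control and 10.4 in the knockdown, from 214 and 256 reads. The LNCaP control had 9.04 CPM and the LNCaP knockdown 22.1, from 513 and 1082 reads. Of the 4 libraries only the LNCaP knockdown stood apart, at more than 2-fold the LNCaP control.

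CAMK2D had a log2 ratio of 0.24 in the resistant line, against 1.21 in LNCaP (1.07 when centred). Without the pseudocount it was 0.27 in C4-2B ENZR (counting interval -0.001 to 0.54), which includes equality, and 1.29 in LNCaP (1.14 to 1.45). Over both lines CAMK2D rose in limma (mean log2 0.72, SE 0.16, adjusted p = 0.000494). The call was lost in edgeR on the recovered reads with recomputed TMM (adjusted p = 0.0701), in DESeq2 (0.140) and in limma without a filter on low values (0.288). The limma SE is pooled over genes with 276 prior degrees of freedom against 1 residual degree, so the gap between 0.24 and 1.21 hardly enters it.

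CAMK2G, which encodes the gamma subunit, measured 62.2 (control) and 74.8 CPM (knockdown) in the C4-2B ENZR line, and 60.6 and 76.6 CPM in LNCaP. It was a little higher in each knockdown library than in its control. The log2 ratios of CAMK2G were 0.26 and 0.33 (0.20 when centred), with counting intervals above 0 in both lines, and it did not pass in limma (mean 0.30, SE 0.12, adjusted p = 0.145). CAMK2B, the beta subunit gene, measured 9.66 (control) and 8.09 CPM (knockdown) in the C4-2B ENZR line, and 32.1 and 33.7 CPM in LNCaP. Its log2 ratios of -0.23 and 0.07 had counting intervals that include equality, the LNCaP ratio turned to -0.07 when centred, and it did not pass in limma (adjusted p = 0.833). CAMK2A, the alpha subunit gene typical of neurons, had 0 reads in all 4 libraries, which allows up to 0.121 and 0.122 CPM in the resistant line, or 0.0529 and 0.0614 CPM in LNCaP.

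**Figure D2:**
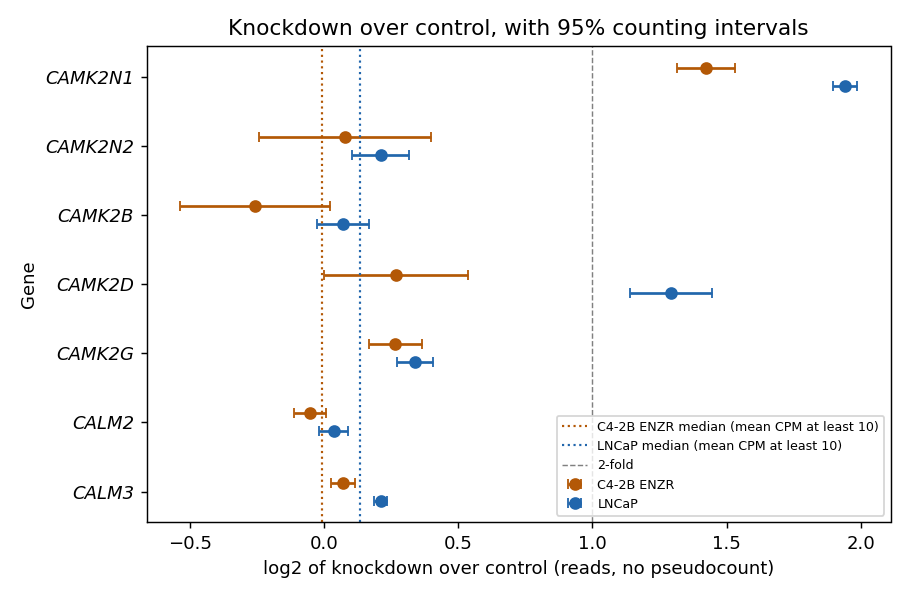
Log2 ratio of knockdown over control from reads on the deposited scale without a pseudocount, with exact 95% counting intervals, for the 7 genes in each line. CAMK2N1 lies beyond 2-fold (dashed) in both lines and CAMK2D in LNCaP, and dotted lines mark the median ratio of genes averaging 10 CPM or more (-0.01 and 0.13).

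The mix of subunit reads differed between the lines and, within each line, between control and knockdown, by more than counting error. CAMK2G made up most subunit reads in every library, with 77.3% in the C4-2B ENZR control, 80.2% in its knockdown, 59.5% in the LNCaP control and 57.8% in its knockdown. CAMK2B took 12.0% (exact 95% interval 10.6 to 13.5%) and 8.67% (7.55 to 9.90%) in the resistant line, against 31.6% (30.4 to 32.8%) and 25.5% (24.4 to 26.5%) in LNCaP, a smaller share in each knockdown. The share of CAMK2D was 10.7% (exact 95% interval 9.42 to 12.2%) and 11.2% (9.90 to 12.5%) in C4-2B ENZR, and 8.89% (8.17 to 9.65%) and 16.7% (15.8 to 17.6%) in LNCaP. The share of CAMK2D was thus lowest in the LNCaP control and highest in the LNCaP knockdown, and CAMK2B took a larger share in both LNCaP libraries than in either C4-2B ENZR library.

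Relative to CAMK2G reads in the same library, CAMK2D was 1.94-fold higher in the LNCaP knockdown than in its control (counting interval 1.72 to 2.18). In C4-2B ENZR the same ratio was 1.00 (0.821 to 1.22). CAMK2B reads per CAMK2G read were 0.697 of the control value in C4-2B ENZR (0.567 to 0.855) and 0.831 in LNCaP (0.765 to 0.902). These ratios need no scaling between libraries, and no replicate was there to test them.

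**Figure D3:**
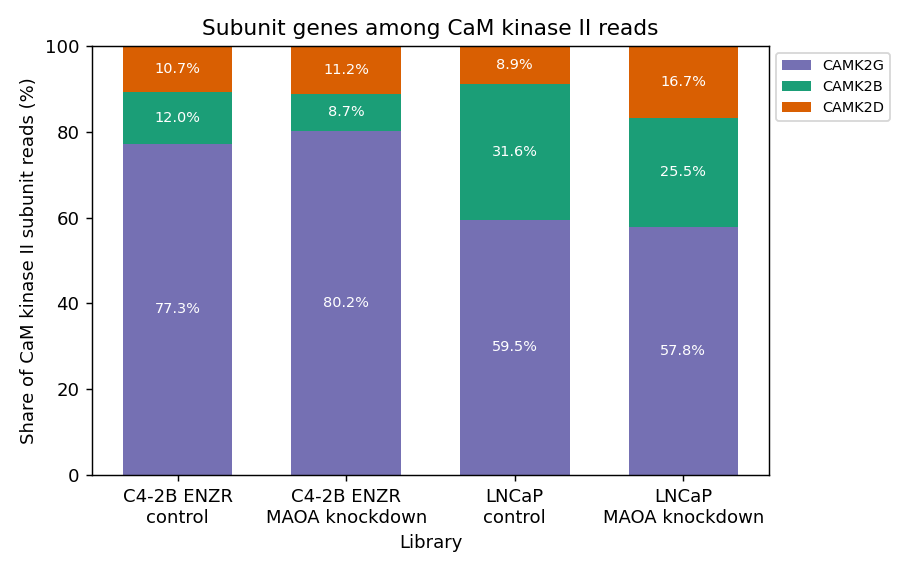
Share (%) of CaM kinase II subunit reads from CAMK2G, CAMK2B and CAMK2D in each of the 4 libraries, with CAMK2A at 0 reads. CAMK2D takes 8.89% in the LNCaP control and 16.7% in the LNCaP knockdown, against 10.7% and 11.2% in C4-2B ENZR.

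The inhibitor was then set against the kinase within each library. CAMK2N1 had 0.488 reads per subunit read in the C4-2B ENZR control (exact 95% interval 0.451 to 0.527) and 1.13 in the knockdown (1.07 to 1.2). In LNCaP it had 0.939 in the control (0.905 to 0.975) and 2.77 in the knockdown (2.69 to 2.85). Each knockdown thus had more CAMK2N1 reads per subunit read than its control. Per kb of the longest transcript the values were 0.844 and 1.95 in the resistant line, against 1.66 and 5.00 in LNCaP. Whether such a value lies above or below 1 depends on the transcript lengths used. Which isoforms the reads came from is not known. In reads per subunit read, the knockdown value was 2.32 times the control value in C4-2B ENZR (2.1 to 2.55) and 2.95 times in LNCaP (2.81 to 3.09). CAMK2N2 reads per subunit read were 0.911 of the control value in C4-2B ENZR (0.724 to 1.15) and 0.889 in LNCaP (0.819 to 0.964). The higher CAMK2N1 values per subunit read in the knockdowns were largely set by the choice of CAMK2N1. Summed subunit CPM had log2 ratios of only 0.21 in C4-2B ENZR and 0.38 in LNCaP. These CAMK2N1 values are therefore a description. RNA reads of an inhibitor and a kinase gene do not measure their protein amounts.

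**Figure D4:**
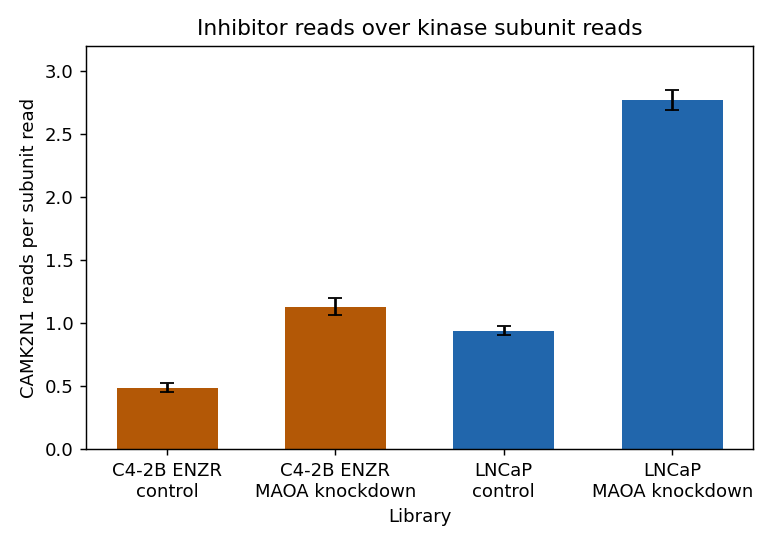
CAMK2N1 reads divided by the summed reads of CAMK2A, CAMK2B, CAMK2D and CAMK2G in each library, with exact 95% counting intervals as error bars. The bars stand at 0.488 and 1.13 in C4-2B ENZR and at 0.939 and 2.77 in LNCaP.

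Levels of different genes were compared per kb of the longest GENCODE transcript, since which isoforms the reads came from is not known. In the C4-2B ENZR control CAMK2N1 was at 16.8 CPM per kb, next to CAMK2G at 16.3, while CAMK2N2 was at 4.81, CAMK2B at 2.17 and CAMK2D at 1.49. In its knockdown CAMK2N1 was at 45.1 CPM per kb, above CALM2 at 41.8 and CAMK2G at 19.6. In LNCaP CAMK2N1 was at 40.9 CPM per kb in the control and 157 in the knockdown, second to CALM3 (187 and 217) in both. CAMK2D was the lowest of the 7 genes in all 4 libraries on this scale, at 1.55 and 3.80 CPM per kb in LNCaP and 1.79 in the C4-2B ENZR knockdown. With 1 library per group, whether neighbours in this order, such as CAMK2N1 and CAMK2G in the C4-2B ENZR control, differ beyond the spread of replicates cannot be said.

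The calmodulin genes encode the calcium sensor that activates the kinase, and CALM2 and CALM3 specify the same protein. CALM2 measured 195 (control) and 188 CPM (knockdown) in the C4-2B ENZR line, and 107 and 110 CPM in LNCaP. CALM3 measured 311 (control) and 327 CPM (knockdown) in the C4-2B ENZR line, and 475 and 550 CPM in LNCaP. Control and knockdown of each line lay close together for both genes.

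The log2 ratios of CALM2 were -0.05 and 0.04, the second of which turned to -0.10 when centred, and those of CALM3 were 0.07 and 0.21 (0.08 when centred). Counting intervals without the pseudocount lay above 0 in both lines for CALM3 and included equality in both for CALM2. Neither gene passed in limma (adjusted p = 0.984 for CALM2 and 0.655 for CALM3). Of the 50-base stretches of CALM2, 2.53% occur in other genes, CALM2P2 and CALM2P3 among them, and of those of CALM3 6.73% do, all of them in genes that overlap it on the other strand.

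Of the 7 genes, 1 was 2-fold higher in the C4-2B ENZR knockdown, where 0.29% of 13810 genes were, and 2 were in LNCaP, where 0.58% of 13787 genes were. None was 2-fold lower in either line (0.152% and 0.254% of all genes). CAMK2N1 is in both counts by choice. The 7 genes had a median log2 ratio of 0.07 in the resistant line, against 0.21 in LNCaP, beside 0.002 and 0.11 for all genes averaging 1 CPM or more. Of the 6 genes beside CAMK2N1, 1 rose and 0 fell in limma, which called 4.22% of 13114 genes higher and 1.49% lower. In edgeR with recomputed TMM 0 of the 6 passed, where 1.33% of genes were called higher and 0.976% lower, and 2 of the 6 (CAMK2D and CAMK2G) had an unadjusted p under 0.05 in limma and in edgeR. The share of all genes with an unadjusted p under 0.05 is not given, so unadjusted counts here and below have no background beside them.

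Genes that act around the kinase were followed in 6 lists with 81 members, of which 68 could be tested in both lines. In limma 6 of the 68 rose (8.82%) and 2 fell (2.94%), against the 4.22% and 1.49% of all genes, with a median mean log2 ratio of 0.11 beside 0.06 for all genes. In edgeR with recomputed TMM 1 rose, CALCOCO1, and 1 fell, DAPK1, each 1.47% of the 68. Without a filter on low values limma called 0 of the 81 (11 higher and 3 lower at an unadjusted p under 0.05). No list member was 2-fold higher in either line, and 1, DAPK1, was 2-fold lower in C4-2B ENZR.

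Of 13 other calmodulin-dependent kinase genes, 1 fell and 0 rose in limma, where 1.49% of all genes fell and 4.22% rose. At an unadjusted p under 0.05, 2 were higher. DAPK1, a calmodulin-regulated kinase linked to cell death, measured 25.2 (control) and 11.9 CPM (knockdown) in the C4-2B ENZR line, and 14.4 and 8.23 CPM in LNCaP. DAPK1 was lower in both knockdowns, with log2 ratios of -1.02 and -0.74 (limma adjusted p = 3.44e-06, edgeR with recomputed TMM 0.00487, DESeq2 0.000623, limma without a filter 0.113). CAMKK2, the kinase that activates CaM kinases I and IV and is known as an androgen-induced gene in prostate, measured 81.0 (control) and 103 CPM (knockdown) in the C4-2B ENZR line, and 332 and 364 CPM in LNCaP. CAMKK2 did not pass in limma, with log2 ratios of 0.34 and 0.13.

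Of 20 genes of calcium release, entry and pumping, 3 rose and 0 fell in limma, where 4.22% of all genes rose and 1.49% fell. After rescaling to the same sum limma called 0 of the 20. ITPR1, a channel that releases calcium from the endoplasmic reticulum, measured 46.1 (control) and 57.4 CPM (knockdown) in the C4-2B ENZR line, and 12.5 and 20.7 CPM for LNCaP (limma adjusted p = 0.01). TRPV6, a calcium entry channel of the plasma membrane, measured 19.0 and 23.0 CPM in the resistant line, and 54.3 and 87.3 CPM in LNCaP (0.0135). ATP2B1, which pumps calcium out of the cell, measured 372 and 539 CPM in the resistant line, and 44.0 and 54.9 CPM in LNCaP (0.0220). All 3 were higher in both knockdown libraries, but in edgeR with recomputed TMM their adjusted p was 0.0648 for ITPR1, 0.0672 for TRPV6 and 0.0954 for ATP2B1. ATP2A2, the pump that refills the endoplasmic reticulum and the gene of this list with the highest CPM, measured 666 and 650 CPM in the resistant line, and 515 and 556 CPM in LNCaP, and missed the threshold.

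Of 14 genes for kinase substrates and calcium-responsive transcription, 2 rose and 1 fell in limma, where 4.22% of all genes rose and 1.49% fell. After rescaling to the same sum limma called 0 higher and 1 lower. HDAC5, a histone deacetylase that leaves the nucleus when CaM kinases phosphorylate it, measured 36.6 (control) and 45.0 CPM (knockdown) in the C4-2B ENZR line, and 44.8 and 65.2 CPM for LNCaP (limma adjusted p = 0.0300). MEF2D, a transcription factor that such deacetylases hold back, measured 47.1 and 54.0 CPM in the resistant line, and 83.0 and 127 CPM in LNCaP (0.0300). CDC25C, a phosphatase of mitotic entry, measured 14.8 and 13.8 CPM in the resistant line, and 14.5 and 7.39 CPM in LNCaP, so that its fall lay in LNCaP (0.0374). None of the 3 passed in edgeR with recomputed TMM, where the adjusted p was 0.0866 for HDAC5, 0.0970 for MEF2D and 0.136 for CDC25C. STMN1, a microtubule regulator with the highest CPM of this list, measured 193 and 183 CPM in the resistant line, and 142 and 130 CPM in LNCaP, and missed the threshold.

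The calcineurin list, which covers the calmodulin-dependent phosphatase and its regulators, had 0 of 8 genes called in limma or in edgeR with recomputed TMM, and 1 and 0 at an unadjusted p under 0.05. PPP3CA, its main catalytic subunit here by CPM, measured 306 (control) and 302 CPM (knockdown) in the C4-2B ENZR line, and 571 and 677 CPM in LNCaP. Phosphatases and anchors of CaM kinase II gave 0 of 9 in limma or in edgeR with recomputed TMM, with 1 and 0 at an unadjusted p under 0.05, and ACTN4, an actin crosslinker, measured 251 and 237 CPM in the resistant line, and 449 and 527 CPM in LNCaP. Of 4 measured calmodulin-binding and calmodulin-like genes 1, CALCOCO1, rose in limma, where 4.22% of all genes did. CALCOCO1, which encodes a coiled-coil coactivator that also serves as an autophagy receptor, measured 17.6 and 22.1 CPM in the resistant line, and 44.9 and 76.5 CPM for LNCaP (limma adjusted p = 0.00352, edgeR with recomputed TMM 0.0441, DESeq2 0.0943, limma without a filter 0.205).

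**Figure D5:**
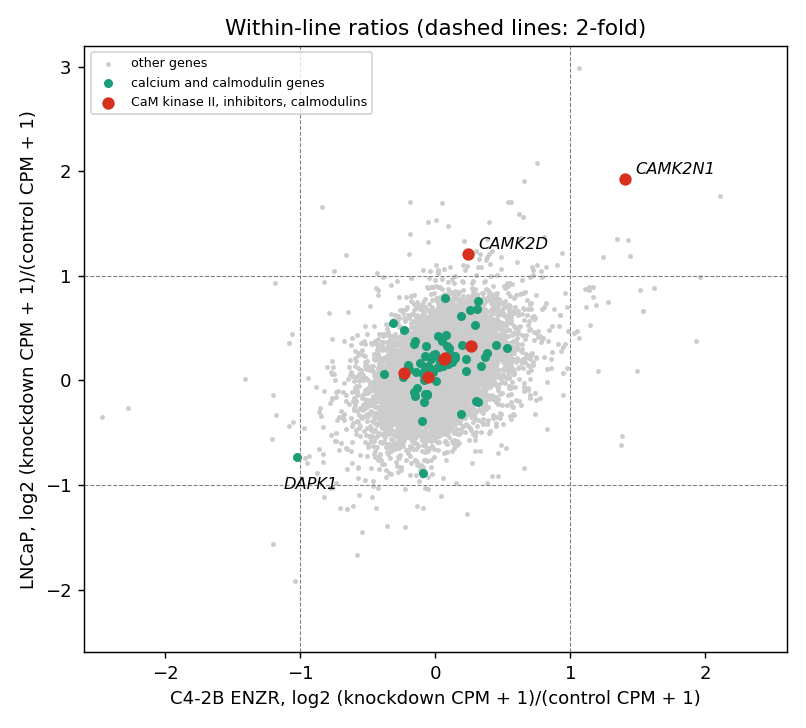
Within-line log2 ratios, with a pseudocount of 1 CPM, of 13113 genes averaging 1 CPM or more in each table (1 more lies outside the axes), C4-2B ENZR on the horizontal and LNCaP on the vertical axis. CAMK2N1 lies beyond 2-fold on both axes, CAMK2D on the LNCaP axis only and DAPK1 on the C4-2B ENZR axis only.

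Genes most like CAMK2N1 were sought by the Euclidean distance between their log2 ratios in the 2 lines, among genes averaging 10 CPM or more in both. Of the 6 nearest, 5 are given here, GDF15 (distance 0.58, ratios 1.43 and 1.35), DDC (0.67, 0.75 and 2.08), TSC22D3 (0.74, 1.44 and 1.19), SDC4 (0.81, 0.81 and 1.38) and BTG2 (0.85, 0.94 and 1.21). Likeness rests on 2 ratios, and these genes were picked by the same values, so it is a description. SDC4, a cell-surface proteoglycan, measured 83.9 (control) and 147 CPM (knockdown) in the C4-2B ENZR line, and 69.9 and 183 CPM in LNCaP.

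CAMK2N1 lies on chromosome 1, and its neighbours by order in the RefSeq gene table (GRCh38.p14) were read on each side up to the fifth gene with reads in both lines. On one side LINC01141, VWA5B1, UBXN10 and PLA2G2F had few reads, at most 76 in a library. In LNCaP PLA2G2F had 5 control reads and 33 knockdown reads, a log2 ratio of 2.94 without a pseudocount (counting interval 1.57 to 4.65). VWA5B1 had 41 and 76 reads there (1.11, 0.54 to 1.69) and LINC01141 had 12 and 23 (1.15, 0.09 to 2.30). Without a pseudocount all 3 were thus over 2-fold higher in the LNCaP knockdown, but the intervals of VWA5B1 and LINC01141 reach below 2-fold. With the pseudocount of 1 CPM used for calls, the LNCaP log2 ratios were 0.62 for PLA2G2F, 0.57 for VWA5B1 and 0.28 for LINC01141, all under 2-fold. In the resistant line none of the 4 genes had over 4 reads. The fifth gene there, 16 places from CAMK2N1, was PLA2G2A, which encodes a secreted phospholipase. PLA2G2A measured 2.22 (control) and 12.9 CPM (knockdown) in the C4-2B ENZR line, and 2.06 and 9.37 CPM in LNCaP. On the other side MUL1, the adjacent gene, measured 25.3 and 23.3 CPM in the resistant line, and 18.6 and 22.7 CPM in LNCaP, and missed the threshold in limma (adjusted p = 0.830). FAM43B had 16 and 31 reads in LNCaP (log2 ratio 1.17 without a pseudocount, counting interval 0.26 to 2.14, and 0.35 with it), with 4 and 8 in the resistant line. PINK1, a kinase of mitochondrial quality control, measured 26.9 and 29.5 CPM in the resistant line, and 41.6 and 68.0 CPM in LNCaP, and rose in limma (adjusted p = 0.0369) while edgeR with recomputed TMM gave 0.122 and limma without a filter 0.320. DDOST, a subunit of the enzyme that attaches sugar chains to new proteins, measured 170 and 204 CPM in the resistant line, and 180 and 249 CPM for LNCaP (limma adjusted p = 0.0686). PINK1-AS, which overlaps PINK1 on the other strand, measured 9.50 and 9.07 CPM in the resistant line, and 7.22 and 7.47 CPM in LNCaP. Of these neighbours MUL1, PINK1, PINK1-AS and DDOST lay within 2-fold of their controls in both lines.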

How the data were processed

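RNA was sequenced as 50-nucleotide single reads from 4 libraries, 1 per group. The authors deposited CPM after TMM scaling for C4-2B ENZR, and for LNCaP TMM-scaled CPM that is treated as a signal because its knockdown column sums to 1064501. Per the submitters' processing notes, Bowtie2 2.1.0, RSEM 1.2.15, edgeR and hg19 were used, while for the edgeR version, annotation and filters the sources used here give nothing. All values came out as whole reads (tolerance 0.01 of a read), and those reads gave depths, counting intervals and the count tests. Between the deposited columns, 1 read is worth a different CPM, so 3 reads equal 0.121, 0.122, 0.0529 and 0.0614 CPM.

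Ratios were log2(knockdown CPM + 1) minus log2(control CPM + 1) within a line, and genes averaging 1 CPM or more were called at 2-fold, with no test. Over both lines limma 3.58.1 (R 4.3.3) with a trended prior was fitted to the 2 ratios of the 13114 genes that averaged 1 CPM or more in each table, with Benjamini-Hochberg adjustment and a threshold of 0.05. Its p-values measure the spread between 2 lines, pooled over genes, and not between cultures. On simulated counts for 13132 genes, limma recovered 87.9% of genes changed 1.5-fold and 98% of those changed 2-fold, and called 10 unchanged genes. The simulation gave a changed gene the same change in both lines, with a preset spread and no scaling shift between control and knockdown. These data differ from that, so the simulation does not tell how many of their calls are false. Alternatives were pseudocounts of 0.1 and 5, a CPM minimum of 5, no filter, centring, rescaling to the same sum, and edgeR 4.0.16 and DESeq2 1.42.0 on the recovered reads.

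The members and lists were chosen with earlier results of these data known. Named genes were the members, CAMK2A, MAOA, each listed gene that passed limma or was 2-fold apart in a line, the gene with the highest CPM of each list, the 6 genes nearest to CAMK2N1 by ratio and 5 measured neighbours on each side. The marker genes, ADRA2A, DDIT4 and the genes with opposite ratios were named after their values were seen, and 2 genes that the naming rule covers are not reported here.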

Additional observations from a re-analysis of the deposited data

Results flagged for a closer look

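Several genes in the lists around the kinase had ratios in opposite directions in the lines, both before and after centring. Of these, 6 also had counting intervals before centring that lay away from 0 in both lines. They were DAPK3, VIM, NRGN, PPP2CB, CRTC1 and ACTN4. ACTN1 and ATP2A2 had such ratios and intervals before centring, but not opposite ratios after it. The share of all genes with such ratios is not given here. Of the 6, DAPK3 and VIM had centred ratios of at least 0.2 in size in each line. The smaller of the centred ratios was 0.198 for NRGN, 0.153 for PPP2CB, 0.145 for CRTC1 and 0.071 for ACTN4. CAMKV (centred 0.32 in C4-2B ENZR and -0.34 in LNCaP) and TRPM8 (0.31 and -0.33) were opposite too. Their counting intervals included equality in LNCaP for CAMKV and in C4-2B ENZR for TRPM8. DAPK3, a calmodulin-kinase relative linked to cell contraction and death, was at 37.2 CPM in the C4-2B ENZR control and 29.7 in the knockdown, with 116 and 170 CPM in LNCaP. Its log2 ratios were -0.32 and 0.55. VIM, the intermediate filament vimentin, measured 38.5 (control) and 32.7 CPM (knockdown) in the C4-2B ENZR line, and 76.6 and 107 CPM in LNCaP, with log2 ratios of -0.23 and 0.48. The difference between the lines was not tested, and it cannot be told apart from drug, lane or any difference in hairpin. Neither gene passed in limma over both lines (adjusted p = 0.680 for DAPK3 and 0.658 for VIM).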

How the results depend on the processing

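With 1 library per group no result has a replicate check, and the 2-line fit takes nearly all of its SE from other genes. No paired analysis was possible because each group has 1 library, so groups share fewer than 2 replicate numbers, and the line is already the block. In C4-2B ENZR 40 genes were 2-fold higher and 21 lower, against 90 and 45 with a pseudocount of 0.1, 18 and 6 with 5, and 26 and 9 with a CPM minimum of 5. In LNCaP 80 were higher and 35 lower, against 163 and 76 with a pseudocount of 0.1, 40 and 6 with 5, 48 and 58 when centred, and 41 and 67 after rescaling to the same sum. Recomputed TMM gave 52 higher in LNCaP, and a CPM minimum of 5 gave 19 lower. The LNCaP ratio of CAMK2N1 was 1.93, and 1.79 centred, 1.73 after rescaling and 1.81 with recomputed TMM. With a pseudocount of 5 that of CAMK2D was 0.95, under 2-fold. In limma 554 genes rose and 195 fell, against 14 and 6 without a filter, 316 and 593 after rescaling, and 578 and 543 when centred. On recovered reads edgeR with recomputed TMM gave 175 and 128, DESeq2 132 and 90, and edgeR with the deposited scaling, an alternative chosen after seeing the data, 584 and 205. Of the pathway genes 6 rose and 2 fell in limma, against 0 and 0 without a filter (11 and 3 at an unadjusted p under 0.05), 1 and 2 after rescaling, 1 and 1 with recomputed TMM in edgeR, 0 and 1 in DESeq2 (6 and 2 unadjusted), and 6 and 1 with a pseudocount of 5. Of the tested single-gene values over both lines, leaving out CAMK2N1, 96 kept their side of the threshold, 30 lost it and 0 turned direction. In LNCaP the ratios of CAMK2B and CALM2 were below 0 when centred, rescaled or with recomputed TMM.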
